A study of Mus musculus with 66 samples.

Results

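The heat shock and chaperone genes are a chosen list of 35 genes that fold, refold or hold proteins or that control such genes, and 34 of the 35 are in the deposited expression table, among 13957 genes. Ahsa1 was not analysed here. The list names its genes and sets no limit on a measured value. Of the 34 genes, 33 reached 1 TPM in at least 1 of 18 groups, as did 8999 genes of the table. Hspa4l stayed under 1 TPM, while Bag3, Cct6a, Dnajb14 and Hspb1 were under 1 TPM in mitosis and passed only through later stages. All counts and medians below therefore use all 34 members.

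The study asked how transcription returns when mouse embryonic stem cells leave mitosis, and what 2 nuclear receptors of the pluripotency network, Esrrb and Nr5a2, add to it. RNA was measured in an E14Tg2a derivative with the 129/Ola genotype in which auxin, a plant hormone, triggers the degradation of both receptors, so all RNA groups carry the degradable receptors. The groups were cells with auxin and cells without auxin, each at 7 times after release from a mitotic arrest, in steps of 10 minutes from 20 to 60 minutes and then at 90 and 120 minutes, as cells arrested in mitosis and as asynchronous cells, with 3 libraries in each of the 18 groups. A second set of libraries came from wild-type E14Tg2a cells of the same genotype: Nr5a2 chromatin immunoprecipitation and input DNA, each in mitosis and in interphase, again with 3 libraries in each of 4 groups.

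The arms were read from the titles of the samples, since their treatment label is ctl throughout, also for cells with auxin. No library held auxin-treated cells with receptors that cannot be degraded. Auxin itself, the loss of Esrrb and the loss of Nr5a2 therefore cannot be told apart. The sources used here do not state how cells were arrested, whether the line is a single clone or whether replicate libraries stem from separate cultures.

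Each expression value is the authors' mean over a group in TPM, a relative transcript abundance that corrects for gene length and library size. No value carries a spread between libraries, so no difference between groups could be tested. Depth is unknown, since TPM keeps none. Ratios are differences of log2(TPM + 1), in which 1 stands for 2-fold and low genes are understated, and every limit of 2-fold or 1.5-fold below is on that scale unless another is named. The TPM summed over the genes of the table was 17155 to 18417 in mitosis and at 20 and 30 minutes. From 60 to 120 minutes it was 40735 to 49059. These sums lie far below the full scale of TPM, so the table holds only a part of the quantified features. What the rest was is not stated, and the levels below are relative to that unseen whole. The median log2 ratio of all genes at 60 minutes over mitosis was 0.95 with auxin and 1.01 without auxin, and member ratios are to be read against this shift. Fewer transcripts per cell in 1 gene and fewer cells that transcribe it cannot be told apart in such bulk samples. All 7 embryonic stem cell markers were in the table, with a sum of 35.4 to 135 TPM over the 18 groups. Of 6 fibroblast markers 4 were in the table, with a sum of 4.05 to 17.3 TPM that came mostly from Fn1. Vim ranged between 0.463 and 4.22 TPM, while Col1a1 and Thy1 stayed under 1 TPM. The 3 measured primitive endoderm markers summed to at most 0.276 TPM.

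Chaperones bind unfolded protein and release it in cycles of ATP use. HSP70 proteins take up short stretches of chain that J-domain proteins deliver, exchange factors reset them, and HSP90 finishes the folding of receptors and kinases with a set of co-chaperones. The ring-shaped chaperonin TRiC folds actin and tubulin, HSP60 and HSP10 form the chaperonin of mitochondria, and BiP and GRP94 work in the endoplasmic reticulum. Under stress, heat shock factor 1 (HSF1) trimers bind repeats of the unit nGAAn upstream of chaperone genes. In mouse embryonic stem cells HSP90 has been described as a chaperone of pluripotency factors, and steroid-type nuclear receptors mature on HSP90.

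A set of 8 chaperone genes was at least 2-fold above its mitotic level by 40 minutes. The other 26 genes of the list passed 2-fold later or, like Hspa4, Fkbp5 and Hspd1, at no time. At 20 and 30 minutes no member was 2-fold above mitosis in either arm, against 0% and 0.0667% of all genes with auxin and 0.0111% and 0.1% without auxin. With 0.1 TPM added in place of 1 TPM, Dnajb14 was already past 2-fold at both times in both arms. By 40 minutes 8 of 34 members were at least 2-fold above mitosis with auxin, against 6.01% of all genes, and 8 of 34 without auxin, against 5.73%. They were the same genes in both arms, namely Hspa8, Dnaja1, Dnajb1, Dnajb14, Hsp90aa1, Hsp90ab1, Hspa5 and Hspb1. The next below the limit was Hsp90b1, with log2 ratios of 0.89 with auxin and 0.75 without auxin. The split depends on the added 1 TPM. In plain TPM, Hsp90b1 was 2 times its mitotic level at 40 minutes with auxin and 1.8 times without auxin. For Bag3 these factors were 2.04 and 1.62, and for Hspa4l, which stayed under 1 TPM, 3.08 and 2.49. The member median at 40 minutes was 0.47 with auxin and 0.37 without auxin, where all genes had medians of 0.21 and 0.14. With 0.1 TPM added, the same 8 members were past 2-fold at 40 minutes, but so were 18.9% of all genes with auxin and 17.1% without auxin, so that the members stood closer to the rest. After each column was centred on its median over genes, 6 members stayed past 2-fold in both arms (all but Dnaja1 and Hsp90ab1), against 2.86% of all genes with auxin and 3.23% without auxin.

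**Figure D1:**
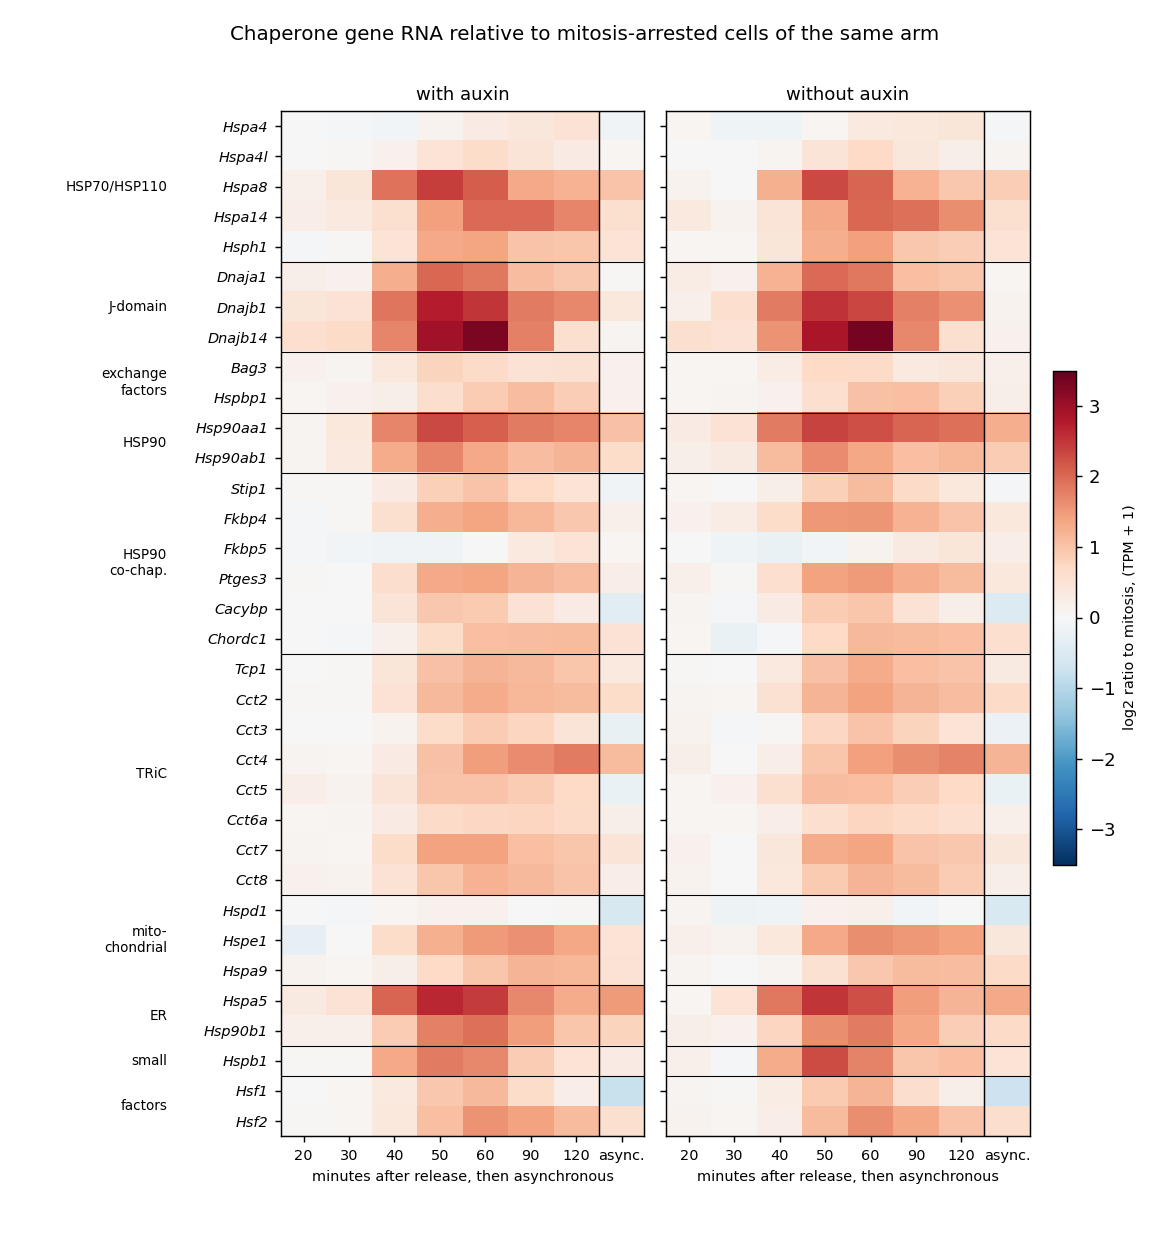
Log2 ratio of each of the 34 members to mitosis-arrested cells of the same arm (colour, log2 of TPM + 1), for cells with auxin on the left and without auxin on the right, at 7 times after release and in asynchronous cells. Colour is strongest at 50 and 60 minutes, where Dnajb14 reaches 3.29 with auxin and 3.35 without auxin, while Hspa4, Fkbp5 and Hspd1 stay pale. Every column after 40 minutes also carries the general shift of the table, whose median at 60 minutes is 0.95 with auxin and 1.01 without auxin.

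By 50 minutes 20 members with auxin and 19 without auxin were past 2-fold (30.5% and 30.6% of all genes), and by 60 minutes 24 and 26 were (46.8% and 50.8%). After centring, 5 members with auxin and 4 without auxin were past 2-fold at 60 minutes (5% and 4.84% of all genes). At 60 minutes the member median was 1.31 with auxin and 1.37 without auxin. Relative to each column's median, 22 members with auxin and 23 without auxin were above mitosis at 60 minutes, against 44.8% and 44.1% of all genes. As deposited, 22 members with auxin and 20 without auxin were past 2-fold at 90 minutes (46.7% and 44.9% of all genes), and 13 in each arm at 120 minutes (34.9% and 33.1%). At 120 minutes that count was 25 with auxin and 23 without auxin with 0.1 TPM added (70.2% and 67.8% of all genes), and 0 with auxin and 1 without auxin after centring (2.24% and 2.43%). In asynchronous cells 3 members were 2-fold above mitosis in each arm (2.5% of all genes with auxin and 2.82% without auxin).

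Among the release times, 10 members with auxin and 9 without auxin were highest at 50 minutes, as were 7.26% and 6.79% of all genes. A further 15 with auxin and 20 without auxin peaked at 60 minutes (36.8% and 45.6% of all genes), although after centring 3 in each arm did (12.6% and 12.8%). The others were highest later: 5 members with auxin and 2 without auxin at 90 minutes (30.3% and 23.6%), and 4 with auxin and 3 without auxin at 120 minutes (24.5% and 22.8%). After the peak, 29 of 34 members with auxin and 30 of 34 without auxin were lower at 120 than at 60 minutes, against 57.4% and 63.3% of all genes. The median change from 60 to 120 minutes was -0.34 with auxin and -0.38 without auxin, where all genes had -0.09 and -0.17. At 120 minutes 33 of 34 members in each arm still stood above asynchronous cells, as did 92.4% of all genes with auxin and 89.8% without auxin. The exception was Hspa5, 0.19 below asynchronous cells with auxin and 0.15 below them without auxin, as log2 differences.

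HSP70 and its HSP110 relatives did not move as a block. Hspa8 (chr9:40801276-40805202 in GRCm38.p6) encodes the constitutive cytosolic HSP70, which also strips clathrin from vesicles. With auxin, Hspa8 measured 1.33, 1.64, 2.14, 7.65, 11.5, 9.05, 4.8 and 4.42 TPM from mitosis to 120 minutes and 3.62 TPM in asynchronous cells. Without auxin, Hspa8 measured 1.55, 1.75, 1.57, 5.04, 11.6, 9.56, 4.98 and 3.88 TPM from mitosis to 120 minutes and 3.65 TPM in asynchronous cells. Its level was highest at 50 minutes in both arms, and the arms stood furthest apart at 40 minutes. The gene overlaps the small nucleolar RNA genes Snord14c, Snord14d and Snord14e, whose reads could have been counted with it.

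Hsph1 (chr5:149616843-149636498) encodes HSP105, a member of the HSP110 family that recharges HSP70 with ATP. With auxin, Hsph1 measured 2.78, 2.6, 2.87, 4.3, 8.48, 8.88, 6.62 and 6.38 TPM from mitosis to 120 minutes and 4.23 TPM in asynchronous cells. Without auxin, Hsph1 measured 2.76, 2.93, 2.93, 4.05, 7.97, 9.16, 6.21 and 5.88 TPM from mitosis to 120 minutes and 4.27 TPM in asynchronous cells. It was first past 2-fold at 50 minutes and highest at 60 minutes in both arms, later than Hspa8. Hspa14, an HSP70 that works at the ribosome, was also first past 2-fold at 50 minutes and reached log2 ratios of 1.98 with auxin and 2.0 without auxin at 60 minutes. Hspa4, another HSP110, was never 2-fold above mitosis: its TPM at 60 minutes was 1.24 times that in mitosis with auxin and 1.28 times without auxin, and it was highest at 120 minutes. Hspa4l, the third HSP110, ranged over the 18 groups between 0.0505 and 0.694 TPM.

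The 3 J-domain genes of the list, whose proteins load substrates onto HSP70, were all past 2-fold by 40 minutes. Their log2 ratios were 1.26 to 1.86 with auxin and 1.21 to 1.81 without auxin. Among the J-domain genes of the second list below, only Dnajb9 was past 2-fold at 40 minutes in either arm. Next came Dnajb5, at 0.94 with auxin and 0.85 without auxin, while Dnajb6 was below mitosis, at -0.12 and -0.14. Dnajb1 (chr8:83608175-83612653) encodes the main stress-inducible partner of HSP70. With auxin, Dnajb1 measured 1.39, 2.23, 2.4, 7.7, 15, 12.6, 7.54 and 6.61 TPM from mitosis to 120 minutes and 2.12 TPM in asynchronous cells. Without auxin, Dnajb1 measured 1.55, 1.88, 2.83, 7.95, 13.7, 11.9, 7.6 and 6.71 TPM from mitosis to 120 minutes and 1.75 TPM in asynchronous cells. At 120 minutes it was still above its mitotic and asynchronous levels.

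Dnaja1 (chr4:40722468-40734965) encodes a farnesylated J-domain protein of the cytosol. With auxin, Dnaja1 measured 5.37, 6.29, 6.07, 14.3, 24.7, 21.8, 12.4 and 11.1 TPM from mitosis to 120 minutes and 5.53 TPM in asynchronous cells. Without auxin, Dnaja1 measured 5.19, 6.48, 5.82, 13.3, 23.2, 21.3, 11.8 and 11.1 TPM from mitosis to 120 minutes and 5.55 TPM in asynchronous cells. Its level at 50 minutes was the highest of the 3 J-domain genes at that time in both arms. Asynchronous cells stood next to mitosis, with log2 ratios of 0.04 with auxin and 0.08 without auxin. Dnaja1 has 1 pseudogene symbol in the annotation, so a part of its reads could be placed there or the reverse. The same holds for Ptges3, Tcp1, Cct3 and Hspa9, with 1 such symbol each.

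Dnajb14 (chr3:137867675-137916563) encodes a J-domain protein anchored in the membrane of the endoplasmic reticulum. With auxin, Dnajb14 measured 0.488, 1.23, 1.39, 3.92, 10.3, 13.5, 4.09 and 1.17 TPM from mitosis to 120 minutes and 0.578 TPM in asynchronous cells. Without auxin, Dnajb14 measured 0.412, 1.09, 1.01, 3.19, 9.35, 13.4, 3.51 and 1.08 TPM from mitosis to 120 minutes and 0.572 TPM in asynchronous cells. It had the highest ratio of all 34 members at 60 minutes and the steepest fall-back, with a log2 change from 60 to 120 minutes of -2.74 with auxin and -2.79 without auxin. Mitotic and asynchronous cells were both under 1 TPM. The gene overlaps Gm40155, a long non-coding RNA.

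**Figure D2:**
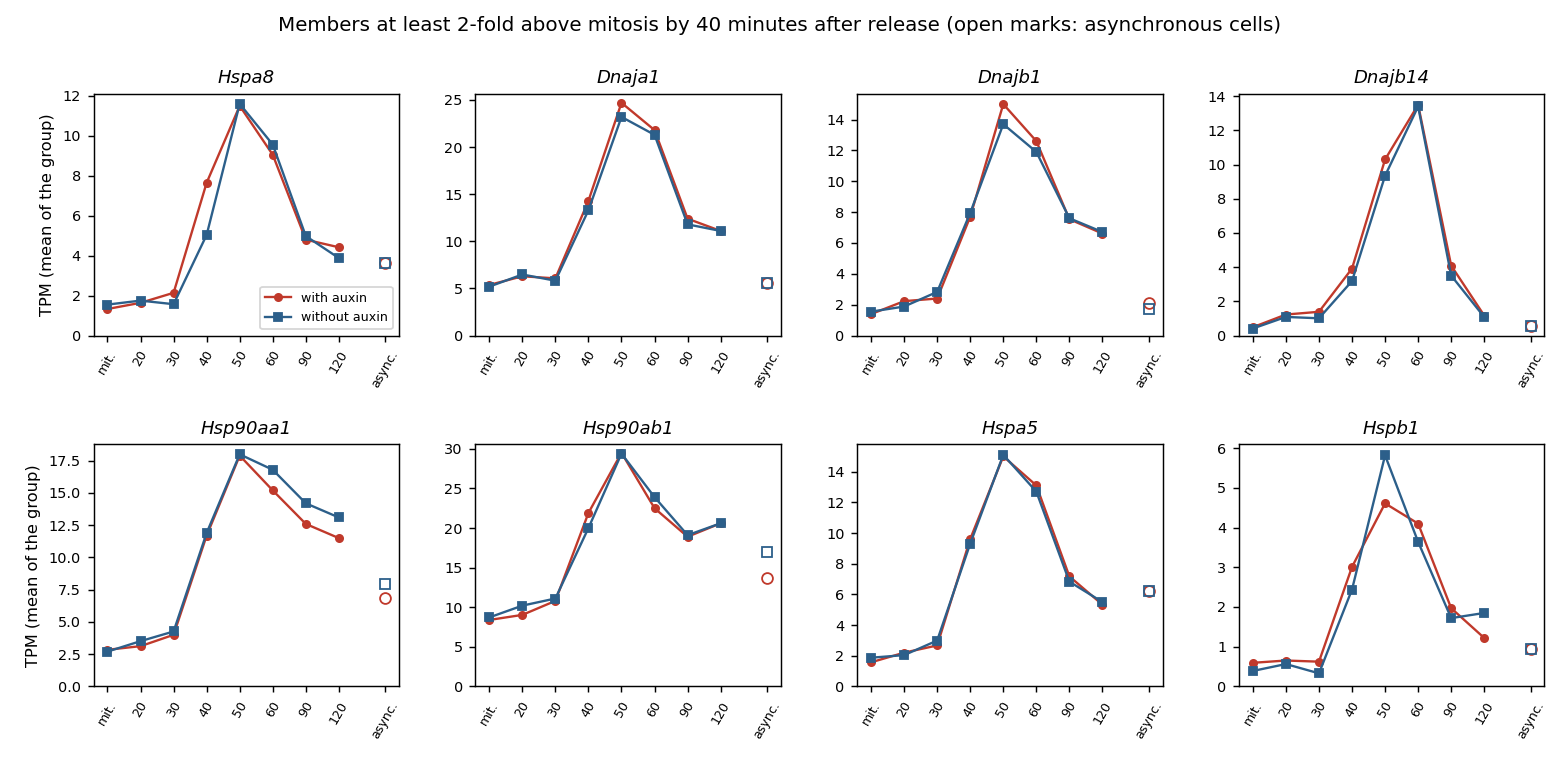
Mean TPM per group of the 8 members past 2-fold by 40 minutes, in mitosis and at 7 times after release (evenly spaced on the axis, not to the scale of time) and in asynchronous cells (open marks), with auxin in red and without auxin in blue. At 30 minutes 7 of the 8 are within 2-fold of mitosis in TPM, Dnajb14 being above it, 7 are highest at 50 minutes and Dnajb14 at 60 minutes, and the 2 lines of a gene follow each other closely except for Hspa8 at 40 minutes, Hspb1 at 50 and 120 minutes and Hsp90aa1 from 60 minutes.

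The 2 genes grouped here as exchange factors, Bag3 and Hspbp1, were low. Bag3, which links HSP70 to autophagy, ranged between 0.4 and 1.42 TPM and was past 2-fold at no time, although with 0.1 TPM added it was at 50 and 60 minutes in both arms. Hspbp1, which opens the HSP70 nucleotide pocket, ranged between 1.28 and 3.84 TPM and was first past 2-fold at 90 minutes with auxin and at 60 minutes without auxin; relative to the column medians it was below mitosis at 60 minutes in both arms.

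Both cytosolic HSP90 genes were early. Hsp90aa1 (chr12:110691036-110696395) encodes the inducible form. With auxin, Hsp90aa1 measured 2.84, 3.12, 4, 11.7, 17.9, 15.2, 12.6 and 11.5 TPM from mitosis to 120 minutes and 6.85 TPM in asynchronous cells. Without auxin, Hsp90aa1 measured 2.7, 3.51, 4.26, 11.9, 18, 16.8, 14.2 and 13.1 TPM from mitosis to 120 minutes and 7.95 TPM in asynchronous cells. It was first past 2-fold at 40 minutes and is among the 3 members 2-fold above mitosis in asynchronous cells of both arms, with Hspa5 and Cct4. Hsp90ab1 (chr17:45567778-45573261) encodes the constitutive form. With auxin, Hsp90ab1 measured 8.39, 9.03, 10.8, 21.9, 29.5, 22.5, 18.9 and 20.6 TPM from mitosis to 120 minutes and 13.7 TPM in asynchronous cells. Without auxin, Hsp90ab1 measured 8.71, 10.2, 11.1, 20.0, 29.4, 23.9, 19.1 and 20.6 TPM from mitosis to 120 minutes and 17 TPM in asynchronous cells. Its level was higher than that of Hsp90aa1 in every group, while its ratio to mitosis at 60 minutes was smaller, 1.32 with auxin and 1.36 without auxin, against 2.08 and 2.26 for Hsp90aa1.

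The HSP90 co-chaperones came later, and none of the 6 was past 2-fold at 40 minutes. Fkbp4 (chr6:128430103-128438656) encodes FKBP52, a prolyl isomerase of steroid receptor complexes. With auxin, Fkbp4 measured 3.21, 3.04, 3.32, 5.24, 9.09, 9.9, 8.36 and 7.06 TPM from mitosis to 120 minutes and 3.77 TPM in asynchronous cells. Without auxin, Fkbp4 measured 2.96, 3.4, 3.73, 5.2, 10.4, 10.6, 8.13 and 6.86 TPM from mitosis to 120 minutes and 4.09 TPM in asynchronous cells. It was first past 2-fold at 50 minutes and highest at 60 minutes in both arms. Its relative Fkbp5, whose protein FKBP51 counters FKBP52 in those complexes, was past 2-fold at no time and was highest at 120 minutes, with a range of 2.37 to 4.59 TPM.

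Chordc1 (chr9:18292267-18314000) encodes a zinc-binding HSP90 partner. With auxin, Chordc1 measured 2.31, 2.28, 2.12, 2.72, 4.11, 5.84, 5.92 and 6.12 TPM from mitosis to 120 minutes and 3.69 TPM in asynchronous cells. Without auxin, Chordc1 measured 2.13, 2.28, 1.7, 2, 4.04, 5.87, 5.73 and 5.42 TPM from mitosis to 120 minutes and 3.71 TPM in asynchronous cells. It was first past 2-fold at 60 minutes in both arms and then stayed near that level, although under quantile normalization its ratio at 60 minutes was below 0 in both arms. Of the others, Ptges3, the co-chaperone p23, was first past 2-fold at 50 minutes and Stip1, the adaptor between HSP70 and HSP90, at 60 minutes, in both arms, though Stip1 was below mitosis at 60 minutes under quantile normalization. Cacybp, which also binds ubiquitin ligase components, was past 2-fold at no time with 1 TPM added and was lower in asynchronous cells than in mitosis, by 0.39 with auxin and 0.47 without auxin.

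The 8 measured TRiC subunits share 1 ring, and their ratios at 60 minutes lay between 0.73 and 1.45 with auxin and between 0.74 and 1.43 without auxin. At 60 minutes 6 of 8 were past 2-fold with auxin and 7 of 8 without auxin, and none was at 40 minutes. Their median ratio at 60 minutes was 1.2 with auxin and 1.25 without auxin, where all genes had 0.95 and 1.01 and all members 1.31 and 1.37. Relative to the column medians, Cct3, Cct5 and Cct6a were below mitosis at 60 minutes in both arms. Cct4 stood out in time, since it was highest at 120 minutes, with 17.1 TPM with auxin and 15.2 TPM without auxin. In mitosis it had 4.11 TPM with auxin and 3.88 TPM without auxin. Cct6a had the lowest level of the subunits, between 0.462 and 1.48 TPM. Cct3 and Cct5 were lower in asynchronous cells than in mitosis in both arms. Tcp1 overlaps Mrpl18 and Acat3, Cct6a overlaps Psph, Cct7 overlaps Pradc1 and Cct8 overlaps Usp16, so parts of their values could be shared with those genes.

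Hspd1 and Hspe1 encode HSP60 and HSP10, the barrel and the lid of the mitochondrial chaperonin, and lie head to head on chromosome 1. Hspd1 spans chr1:55077833-55088243 and Hspe1 spans chr1:55088148-55091317. With auxin, Hspe1 measured 4.49, 3.51, 4.53, 7.5, 12.1, 14.5, 15.5 and 13 TPM from mitosis to 120 minutes and 6.7 TPM in asynchronous cells. Without auxin, Hspe1 measured 4.42, 5.13, 4.88, 6.02, 12.5, 15.6, 14.6 and 13.3 TPM from mitosis to 120 minutes and 6.11 TPM in asynchronous cells. Its level was highest at 90 minutes with auxin and at 60 minutes without auxin. With auxin, Hspd1 measured 19.8, 20.0, 18.7, 20.9, 22, 22.3, 20.1 and 20.3 TPM from mitosis to 120 minutes and 13.1 TPM in asynchronous cells. Without auxin, Hspd1 measured 20.0, 21.3, 17.7, 18, 22.2, 22.5, 18.7 and 20.0 TPM from mitosis to 120 minutes and 13.5 TPM in asynchronous cells. Hspe1 was first past 2-fold at 50 minutes in both arms, whereas Hspd1 was past it at no time. At 60 minutes the TPM of Hspe1 was 3.24 times that in mitosis with auxin and 3.54 times without auxin. For Hspd1 these factors were 1.12 with auxin and 1.13 without auxin. Hspd1 had the higher level of the pair in mitosis and was lower in asynchronous cells than in mitosis, by 0.57 with auxin and 0.53 without auxin. The annotation lists 6 pseudogene symbols for Hspe1 and 5 for Hspd1, so both values are uncertain by what the counting made of near-identical copies. Hspa9, the mitochondrial HSP70, was first past 2-fold at 90 minutes in both arms and then held, with 18.2 TPM with auxin and 18.1 TPM without auxin at 120 minutes.

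Their shared start region is shown because it joins the heat shock element to an Nr5a2 peak. The RefSeq promoter window of Hspe1 (GRCm38.p6, 250 bases before to 50 bases after a start) holds 3 overlapping elements and, 3′ of them, AAGGTCA, the site that Esrrb and Nr5a2 are known to bind. The stretch is chr1:55088023-55088122, plus strand, and the first run of capitals marks the 3 elements and the second run marks AAGGTCA.
Hspe1: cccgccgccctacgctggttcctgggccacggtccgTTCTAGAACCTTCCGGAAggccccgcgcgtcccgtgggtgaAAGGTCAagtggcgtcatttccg
The elements take up chr1:55088059-55088076 and the receptor site chr1:55088100-55088106. Both lie within a peak of class L in the authors' deposited list, chr1:55088017-55088222. A second peak, of class dB, lies at chr1:55088425-55089096, inside Hspe1.

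In the endoplasmic reticulum Hspa5 (chr2:34772090-34776529) encodes BiP, the HSP70 of that compartment. With auxin, Hspa5 measured 1.57, 2.2, 2.67, 9.61, 15, 13.1, 7.17 and 5.33 TPM from mitosis to 120 minutes and 6.21 TPM in asynchronous cells. Without auxin, Hspa5 measured 1.87, 2.04, 2.99, 9.31, 15.1, 12.7, 6.83 and 5.5 TPM from mitosis to 120 minutes and 6.23 TPM in asynchronous cells. It had the highest ratio of all members at 40 minutes, 2.04 with auxin and 1.85 without auxin, and remained past 2-fold at 60 minutes after centring in both arms, but not without auxin under quantile normalization. Hspa5 overlaps Rabepk, so a part of its value could be shared with that gene. Hsp90b1, which encodes GRP94, was first past 2-fold at 50 minutes and highest at 60 minutes, with 24.4 TPM with auxin and 23.3 TPM without auxin. In mitosis Hsp90b1 had 5.7 TPM with auxin and 5.89 TPM without auxin. The log2 change from 60 to 120 minutes was -1.16 with auxin and -1.07 without auxin for Hspa5, and -0.95 and -0.97 for Hsp90b1.

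These 2 promoters are shown because they hold the endoplasmic reticulum stress element, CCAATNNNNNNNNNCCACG, which the factor ATF6 is known to use. Among the 28 members with a RefSeq window, Hspa5 and Hsp90b1 alone hold it on either strand, against 0.193% of 7266 genes of at least 1 TPM with a window. Capitals mark its 2 outer boxes. The Hspa5 stretch is chr2:34771975-34772054, plus strand.
Hspa5: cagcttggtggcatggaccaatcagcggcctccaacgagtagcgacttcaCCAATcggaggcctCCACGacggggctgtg
The Hsp90b1 stretches, both on the minus strand, are chr10:86705620-86705669 and chr10:86705520-86705569, and in the second the boxes read as their reverse complement.
Hsp90b1, distal: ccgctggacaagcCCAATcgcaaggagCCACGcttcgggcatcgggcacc
Hsp90b1, proximal: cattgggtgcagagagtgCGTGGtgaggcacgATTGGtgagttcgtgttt

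The small heat shock protein gene is Hspb1 (chr5:135887919-135889563), whose protein holds unfolded chains without ATP. With auxin, Hspb1 measured 0.594, 0.652, 0.623, 3.01, 4.61, 4.1, 1.97 and 1.22 TPM from mitosis to 120 minutes and 0.954 TPM in asynchronous cells. Without auxin, Hspb1 measured 0.389, 0.563, 0.329, 2.44, 5.82, 3.64, 1.72 and 1.85 TPM from mitosis to 120 minutes and 0.941 TPM in asynchronous cells. It was first past 2-fold at 40 minutes and highest at 50 minutes in both arms. The 2 factors were not among the early genes. Hsf1 (chr15:76477362-76501155) encodes the main stress factor. With auxin, Hsf1 measured 3.91, 3.99, 4.18, 5.18, 8.33, 9.81, 6.73 and 4.75 TPM from mitosis to 120 minutes and 1.88 TPM in asynchronous cells. Without auxin, Hsf1 measured 3.91, 4.26, 4.01, 4.88, 8.29, 10.2, 6.49 and 4.68 TPM from mitosis to 120 minutes and 1.98 TPM in asynchronous cells. It was past 2-fold at 60 minutes in both arms and at no other time, and under quantile normalization these ratios were below 0. Asynchronous cells had less than mitosis in both arms, by 0.77 with auxin and 0.72 without auxin, and this was the largest such difference among the members. In all, 7 of 34 members were lower in asynchronous cells than in mitosis in each arm, against 13.8% of all genes with auxin and 11% without auxin. They were Hspa4, Stip1, Cacybp, Cct3, Cct5, Hspd1 and Hsf1 in both arms. Hsf2, a relative of Hsf1 described as staying on chaperone promoters in mitosis, was first past 2-fold at 50 minutes, with 9.19 TPM with auxin and 9.11 TPM without auxin at 60 minutes.

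The heat shock element was searched as GAANNTTC or TTCNNGAA, each on both strands and with overlaps allowed, in the RefSeq windows of 28 members. It was found in 11 of the 28: Hsph1, Dnaja1, Bag3, Fkbp4, Chordc1, Cct2, Cct5, Cct6a, Hspd1, Hspe1 and Hspb1. The share among 7266 genes of at least 1 TPM was 13.7%. A triple element, in which another unit, GAA or TTC in turn, follows the pair after 2 further bases, was found in 4 members, Hsph1, Chordc1, Hspd1 and Hspe1, and in 0.578% of the 7266 genes. None of these 4 was past 2-fold at 40 minutes in either arm. The elements of Hspd1 and Hspe1 are the same bases, seen through overlapping windows, but count for each gene here and among the 11. Of the 8 early members, Dnaja1 and Hspb1 hold the simple element, and Dnajb1, Dnajb14 and Hspa5 have a window without these letters. Hspa8, Hsp90aa1, Hsp90ab1, Hspa9, Cct4 and Hsf1 have no window in the table.

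The following stretches are shown to set 2 early members beside 2 later ones, with the elements in capitals. Dnaja1 is chr4:40722328-40722367 and Hspb1 is chr5:135887794-135887843, both on the plus strand and upstream of the start. Hsph1 is chr5:149636277-149636306 on the minus strand and Chordc1 is chr9:18292261-18292290 on the plus strand, both at or just past the start.
Dnaja1: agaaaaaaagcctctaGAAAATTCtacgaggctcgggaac
Hspb1: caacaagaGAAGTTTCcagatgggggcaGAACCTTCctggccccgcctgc
Hsph1: tgcagaTTCTGGAAAGTTCtcctcagtagg
Chordc1: cgGAACGTTCGGGAAAATTCCTGAAgcagt
Hspb1 carries 2 separate elements and Dnaja1 a single one, whereas in the stretches of Hsph1 and Chordc1 the elements overlap into 1 run. Each of the last 2 also holds a separate element outside the stretch shown. The contrast holds for the genes shown only. Fkbp4, Cct2, Cct5, Cct6a and Bag3, which were not early either, each hold a single simple element. In Hspe1, also not early, the run of elements lies upstream of the start.

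Early members were mostly short genes. Spearman's rho between gene span and the ratio at 40 minutes was -0.64 with auxin and -0.62 without auxin over the 34 members, which share libraries and depth, and -0.54 and -0.60 over 8943 genes. Of the 9 members that span at most 10 kb, 6 were past 2-fold at 40 minutes in each arm, against 16.3% of 2277 such genes with auxin and 16.8% without auxin. Of the 25 longer members 2 were, in each arm, against 2.43% of 6666 genes with auxin and 1.91% without auxin. The 10 kb limit was chosen after the values were seen; with 20 kb, 7 of 22 members were past 2-fold in each arm, against 11.4% of genes. The 2 early genes over 10 kb were Dnaja1, of 12.5 kb, and Dnajb14, of 48.9 kb. The 3 short members that were not early were Hspe1 of 3.17 kb, Fkbp4 of 8.55 kb and Tcp1 of 8.74 kb. At the other end Fkbp5, of 87.4 kb, had the lowest ratio at 40 minutes, -0.13 with auxin and -0.23 without auxin.

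**Figure D3:**
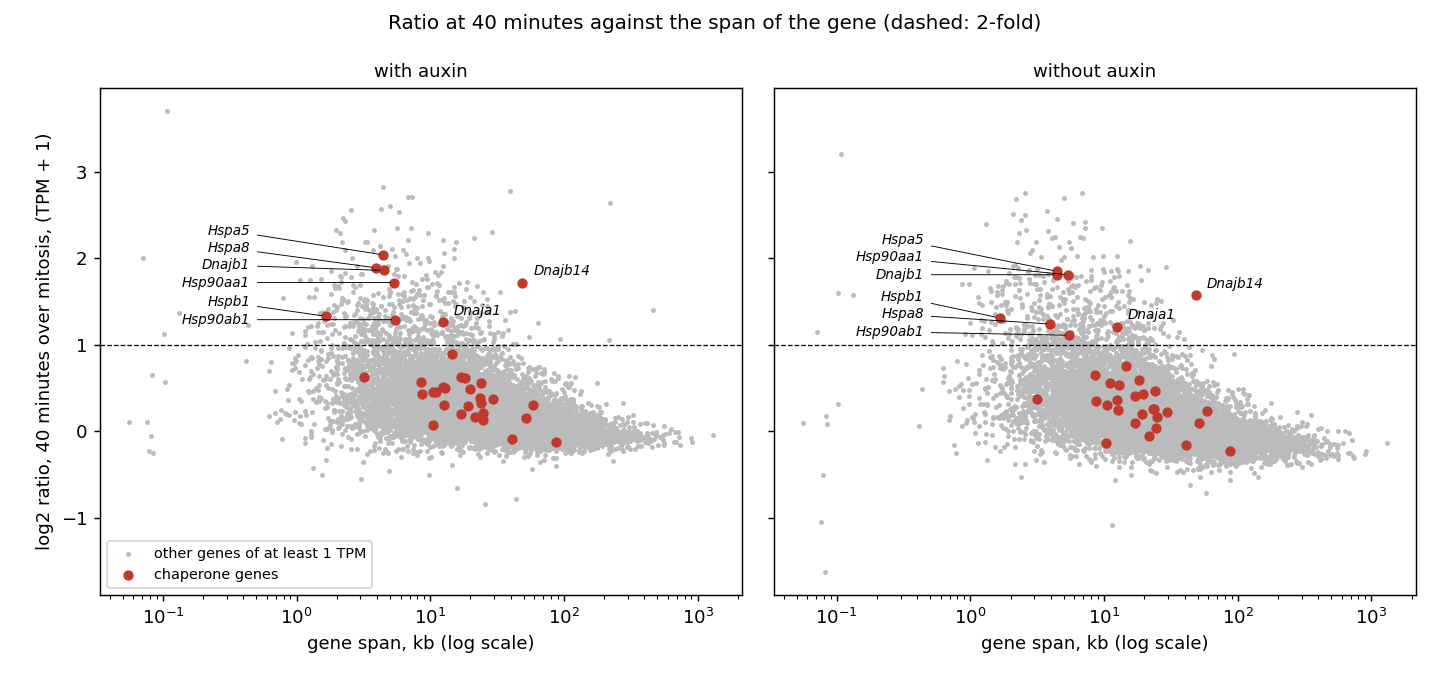
Log2 ratio at 40 minutes over mitosis (TPM + 1) against the span of the gene in kb on a log axis, with auxin on the left and without auxin on the right; red points are the 34 members, grey points are other genes of at least 1 TPM, and the dashed line is 2-fold. Above the line lie 6 members of at most 10 kb, Dnaja1 and Dnajb14, the last far to the right of the others.

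The arms differed little in these genes. The difference of log2(TPM + 1), with auxin minus without auxin, averaged over the 7 times after release, had a median of 0.02 over the members, and of 0.02 over all genes. On average 29 of 34 members were higher with auxin and 5 were lower, while 60.8% of all genes were higher. No member differed by 1.5-fold at any of the 9 stages, against 1.97% of all genes that did at 1 or more. With 0.1 TPM added, 2 members did, Hspa8 at 40 minutes and Hspb1 at 30 minutes, and so did 8.26% of all genes. Both arms went through the same times of release, but these 7 times are different stages and not repeats. Each time also carries a shift of the whole table: 71.7% of all genes were higher with auxin at 40 minutes, and 80.5% were lower at 60 minutes. A sign shared by all 7 times is therefore given beside its share over all genes. Dnajb14 alone was higher with auxin at all 7 (3.88% of all genes), with a mean of 0.14 and a range of 0.01 to 0.25. Hsp90aa1 alone was lower at all 7 (5.33% of all genes), with a mean of -0.10 and a range of -0.18 to -0.01. In mitosis the difference of Hsp90aa1 was 0.06, and in asynchronous cells it was -0.19. Both signs held at all 7 times under every scaling tried. Which members share a sign at all 7 times moved with the scaling otherwise: Chordc1 was higher at all 7 after centring as well.

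The authors' deposited table called 3 members higher, Dnajb14, Hspa8 and Hspb1, none lower, and the other 31 as not responsive. Of all 13957 genes of the table, without the 1 TPM limit, 6.74% were called higher and 7.26% lower. How these calls were made is not given in the sources used here. Hspa8 had the second most positive mean, 0.11, which came from 3 of the 7 times: 0.29 at 30, 0.52 at 40 and 0.15 at 120 minutes, while at the other 4 it was between -0.07 and -0.01. Hspb1 was higher with auxin at 5 of 7 times but had differences of -0.28 at 50 and -0.36 at 120 minutes, with a mean of 0.03 that turned to -0.01 without the 30 minute columns. Chordc1, with a mean of 0.10, was furthest apart at 40 minutes, 0.31, and was not called. At the other end stood Fkbp4, with a mean of -0.06 and 4 of 7 times lower, and Hspe1, with a mean of -0.05. Hspe1 spread the most, with -0.44 at 20 minutes and 0.28 at 40 minutes. In asynchronous cells the largest difference was that of Hsp90ab1, -0.30, and 23 of 34 members were lower there with auxin, as were 71% of all genes.

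**Figure D4:**
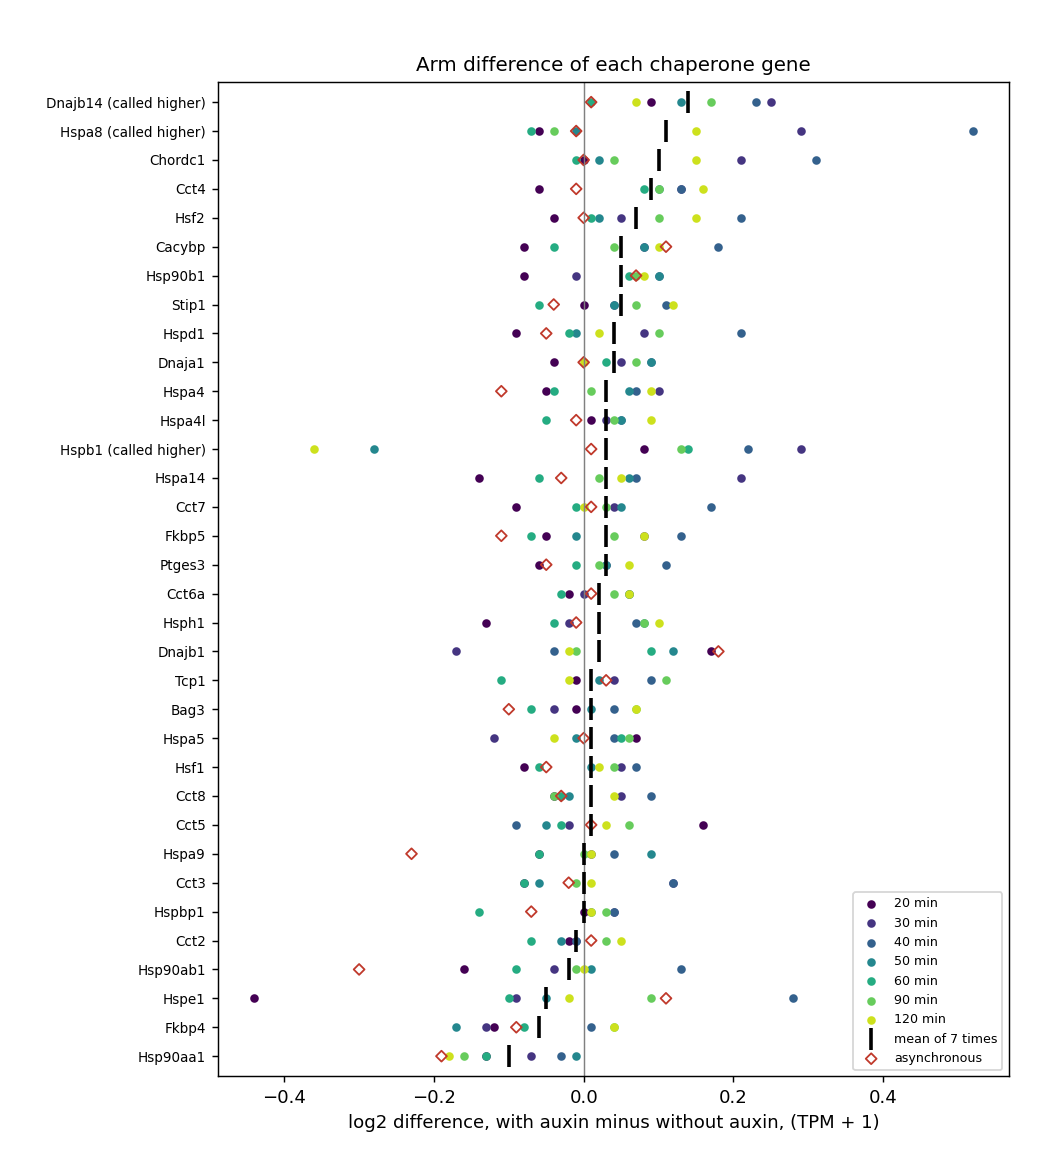
Difference of log2(TPM + 1), with auxin minus without auxin, for each of the 34 members at each of 7 release times (filled points), their mean (black bar) and in asynchronous cells (open red marks), ordered by the mean; the authors' calls are written at the names. The means lie between -0.10 for Hsp90aa1 and 0.14 for Dnajb14, and single times spread wider, to 0.52 for Hspa8 at 40 minutes and -0.44 for Hspe1 at 20 minutes.

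Nr5a2 peaks lay in or within 10 kb of 25 of 34 members, a share near the 72% of 8939 genes of at least 1 TPM with a position. The deposited list has 35266 peaks from wild-type cells, in 4 classes coded L, eB, dB and nB, whose meaning is not given in the sources used here. It has no height per library, so mitosis and interphase could not be compared. Peaks of class dB lay near 12 of 34 members (19.1% of genes), class L near 20 (54.4%), class eB near 6 (28.1%) and class nB near 5 (13.9%). No peak lay near Hspa4l, Hspa14, Dnaja1, Dnajb1, Chordc1, Tcp1, Cct5, Cct7 or Hsp90b1. Among the early members, Dnaja1 and Dnajb1 are thus without a peak within 10 kb. Dnajb14 has 2 of class L, and Hspa8 has 3 of class eB and 1 of class dB. The other early members also have peaks: 6 for Hsp90ab1, 4 for Hspb1, 3 for Hsp90aa1 and 2 for Hspa5. Within 50 kb, 32 of 34 members had a peak, as did 92.4% of genes.

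A peak overlapped the promoter window itself in 6 of 28 members, Hspa4, Hspa5, Hspbp1, Fkbp5, Hspd1 and Hspe1, or 21.4%, against 14.4% of 7266 genes. Of the 5 early members with a window, Hspa5 alone is among these, with a peak of class eB at chr2:34771422-34771990 that ends before its stress element boxes in capitals above. AAGGTCA on either strand was found in the windows of 3 members, Cct2, Hspd1 and Hspe1, and in those of 3.66% of the 7266 genes. In Hspd1 and Hspe1 it is the single site shown above, within the 1 class L peak that overlaps the windows of both genes. Neither gene was called by the authors' deposited table, and their mean arm differences were 0.04 and -0.05.

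**Figure D5:**
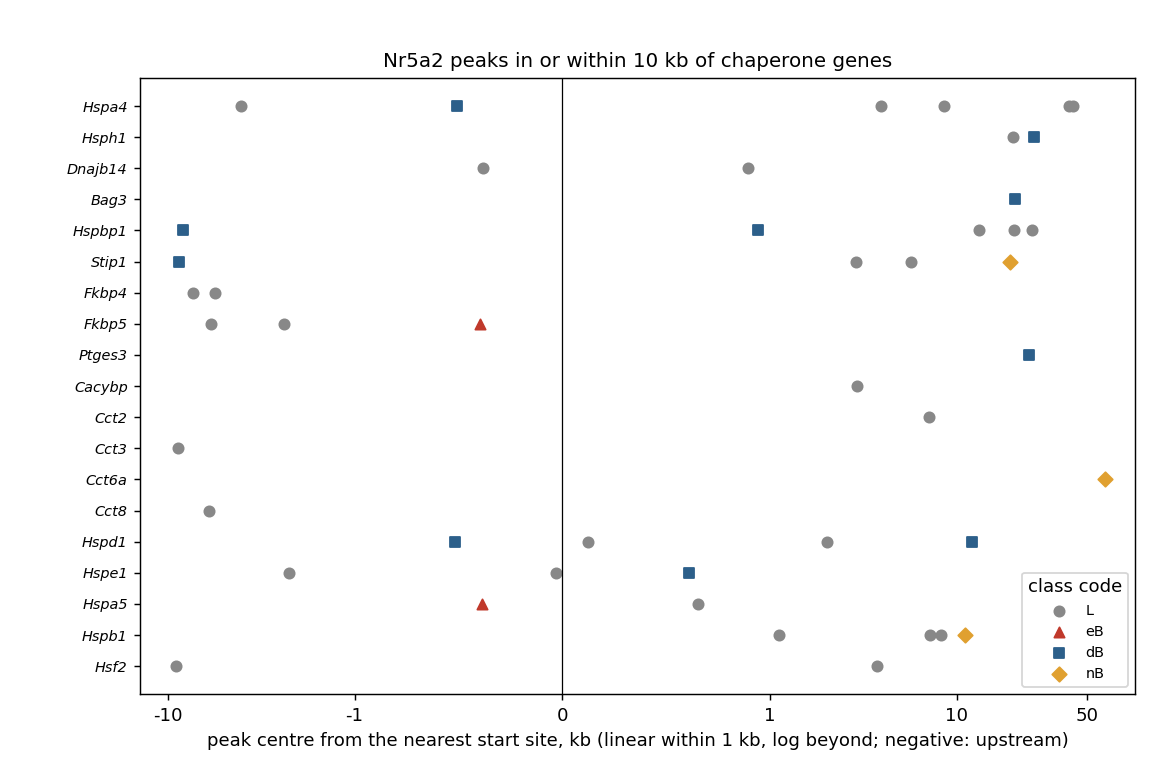
Position of the centre of each Nr5a2 peak in or within 10 kb of a member, in kb from the nearest RefSeq start of that gene (linear within 1 kb, log beyond; negative is upstream), by class code; members without a RefSeq start are not drawn. Centres within 1 kb of a start belong to Hspa4, Dnajb14, Hspbp1, Fkbp5, Hspd1, Hspe1 and Hspa5, and the 3 peaks of Hspe1 are also drawn at Hspd1.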

How the data were processed

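RNA was measured in 54 libraries in 18 groups of 3, and Nr5a2 binding in 12 libraries in 4 groups of 3. Libraries were depleted of ribosomal RNA, stranded and paired-end, per the labels' protocols. The authors deposited TPM as 1 mean per group, with a call per gene, and a list of peaks. STAR, RSEM, DESeq2, Bowtie2, MACS2 and mm10 are named per the submitters' processing notes, without versions. Whether spliced or unspliced RNA was quantified is not stated, and TPM keeps no depth.

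The members, their roles and the other lists were chosen with earlier results of these data known. Ratios used a pseudocount of 1 TPM. Shares of all genes used the 8999 genes of at least 1 TPM in at least 1 group, unless another number of genes is given. Shares beside the authors' calls used all 13957 genes of the table. No test was made, because each group has 1 value, so folds of 2 from mitosis and of 1.5 between arms stand in for calls. Values in all 18 groups are given for the 8 members past 2-fold at 40 minutes, for Hsph1, Hspe1, Hspd1 and Hsf1, and for the 3 members at either end of the mean arm difference. The others are given by ranges and counts. Gene positions, found for 34 of 34 members and 13869 of the table's genes, and promoter windows are RefSeq's on GRCm38.p6, and peaks were joined by an overlap of 1 base. Alternatives were a pseudocount of 0.1 TPM, columns centred on their median, quantile normalization, no filter, each release time left out, other distances and a stricter motif. The calculation was tested on simulated data. Python 3.11.15, numpy 2.4.6, pandas 2.3.3, scipy 1.17.1 and matplotlib 3.10.9 were used.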

Additional observations from a re-analysis of the deposited data

How the results depend on the processing

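Values with no replicates were taken as moved when they changed by over 1.5 times. With columns centred on their medians, 5 members with auxin and 4 without auxin were past 2-fold at 60 minutes, against 24 and 26 as deposited, and with quantile normalization 3 and 2 were. The member median at 60 minutes over mitosis became 0.28 with auxin and 0.27 without auxin after centring, and 0.13 and 0.11 after quantile normalization. The median change from 60 to 120 minutes became -0.18 without auxin after centring, and -0.13 with auxin and -0.14 without auxin after quantile normalization. Members highest at 60 minutes numbered 3 in each arm after centring and 4 in each arm after quantile normalization. Centring and quantile normalization remove the general shift by construction. The count at 40 minutes without auxin, chosen for recomputation after seeing the data, became 5 after quantile normalization, while with auxin it stayed at 6 or more. The count at 120 minutes, added in the same way, was 13 in each arm as deposited; it became 25 with auxin and 23 without auxin with 0.1 TPM added, 0 and 1 after centring, and 0 and 0 after quantile normalization. After centring, 7 members in each arm were past 2-fold at 50 minutes, and 0 with auxin and 1 without auxin at 90 minutes.

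All 34 members were above mitosis at 60 minutes as deposited, but 12 with auxin and 11 without auxin were below it after centring, and 13 and 14 after quantile normalization. The lowest was Fkbp5, at -1.01 with auxin and -0.99 without auxin after centring, and at -1.07 and -1.05 after quantile normalization. Among members past 2-fold as deposited, log2 ratios after centring were -0.02 for Stip1 and -0.02 for Cct5 with auxin, and -0.08 for Hspbp1, -0.10 for Cct3 and -0.04 for Cct5 without auxin. Among the same members, quantile normalization gave with auxin -0.24 for Stip1, -0.14 for Chordc1, -0.05 for Tcp1, -0.23 for Cct5, -0.01 for Cct8 and -0.11 for Hsf1. Without auxin it gave -0.10 for Hspbp1, -0.21 for Stip1, -0.13 for Chordc1, -0.01 for Tcp1, -0.32 for Cct3, -0.26 for Cct5, -0.09 for Cct8 and -0.12 for Hsf1.

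The member median of the arm difference was 0.01 without the 40 minute columns. Members higher with auxin at all times used numbered 2 after centring, 5 after quantile normalization, 4 without the 20 minute columns and 3 without the 60 minute columns, against 1 as deposited. The mean of Hspb1 became -0.01 without the 30 minute columns. The triple heat shock element was in 4 members, against 11 with the simple one. The count of members with a peak near the gene moved by less than 1.5 times under every distance tried. Removing the filter could not move a count or median of the list, since the filter was never applied to the members. A pseudocount of 0.1 TPM moved the count at 120 minutes given above and that of members 1.5-fold apart between arms, 2 against 0. No paired analysis was possible because the columns are group means and carry no replicate number; leaving out a replicate was not run for the same reason.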

Other observations

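A second list of 80 chaperone, co-chaperone and stress genes outside the members had 74 in the table. At 40 minutes 11 of the 74 were at least 2-fold above mitosis with auxin and 8 without auxin (6.01% and 5.73% of all genes), and at 60 minutes 45 with auxin and 48 without auxin (46.8% and 50.8%). Of its 19 measured genes of the endoplasmic reticulum, 5 with auxin and 4 without auxin were past 2-fold at 40 minutes. Dnajb9, a J-domain partner of BiP, had 7.89 TPM at 40 minutes with auxin and 5.35 TPM without auxin, against 1.02 and 0.893 TPM in mitosis. Ddit3, the stress factor CHOP, had 12.3 TPM at 40 minutes with auxin and 10.2 TPM without auxin, against 2.61 and 2.69 TPM in mitosis, and it was higher with auxin at all 7 times, with a mean difference of 0.13. Calr, the lectin chaperone calreticulin, had 15.8 TPM at 40 minutes with auxin and 13.5 TPM without auxin, against 5.75 and 5.92 TPM in mitosis. These genes were named after their values were seen.

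The authors' deposited table called 4 of the 74 higher with auxin (6.74% of all 13957 genes), Hspa13, Hsf5, Pdia3 and Serpinh1. It called 5 lower (7.26%), Hspb8, Bag5, Sugt1, Hspbap1 and Xbp1. Hspb8, a small heat shock protein, and Sugt1, an HSP90 co-chaperone, were both lower with auxin at all 7 times, each with a mean difference of -0.13. Hyou1, which was not called, was lower at all 7 as well, with a mean of -0.09. These were 3 of the 74, against 5.33% of all genes, and 5 of the 74, Ddit3 among them, were higher at all 7, against 3.88%.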
